A study of Mus musculus with 661 samples.

Results

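The genes described here encode the proteins that hydroxylate, chaperone and crosslink collagen chains: Serpinh1, P4ha1, Plod1, Plod2, Plod3, Lox, Loxl1, Loxl2, Loxl3 and Loxl4. They were chosen by name and not by a measured value, although earlier results of these data were known at the time. They are 10 of the 45771 nuclear gene symbols in the counts. The counts come from single stromal cells, 336 young and 325 old, sorted singly from bones of wild-type C57BL/6 mice of both sexes. Young mice were 6 to 12 weeks old, and old mice were at least 18 months old, most of them about 24 months. Crushed, collagenase-treated bone (endosteum) gave MSC-S (CD31- Sca-1+ CD51+; 59 young and 59 old cells), mOPr (Sca-1- CD51+ PDGFRα+ LepR-; 26 and 26), OPr (Sca-1- CD51+ PDGFRα- LepR-; 44 and 29) and arteriolar endothelial cells (AEC, CD31+ Sca-1hi CD105lo; 84 and 82). Flushed central marrow gave MSC-L (PDGFRα+ LepR+; 53 and 58) and sinusoidal endothelial cells (SEC, CD31+ Sca-1lo CD105hi; 70 and 71), and all gates were CD45- and Ter119-.

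Procollagen chains are modified in the endoplasmic reticulum before they fold. Prolyl 4-hydroxylase makes the hydroxyproline that stabilises the triple helix, lysyl hydroxylases make the hydroxylysine that carries sugars and later crosslinks, and the chaperone HSP47 binds the folded helix until it leaves the compartment. Outside the cell, copper-dependent lysyl oxidases convert lysine and hydroxylysine of collagen, and lysine of elastin, into aldehydes that join neighbouring molecules, and in bone and cartilage these crosslinks give the matrix its strength.

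The labels name no mouse, so each age of a population is treated as 1 sample, and no p-value or error over animals can be given. Levels are CPM, the counts of a gene scaled to the summed nuclear counts of a group, with 95% Poisson intervals, and differences are log2 ratios with 95% binomial intervals. These intervals cover counting error alone, because amplified reads without molecular identifiers are not independent molecules. Library numbers in the labels fall into 3 ranges (170, 303 and 188 cells), and a range served as a separate repeat where both ages had 5 or more cells. MSC-L, MSC-S, OPr and mOPr lie in ranges 1 and 2, AEC in all 3 and SEC in range 3 alone, so age in SEC has no repeat. Median depth was lowest in old SEC (306315 counts per cell) and highest in old OPr (781968).

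Markers of the sorted cell types were checked before the enzymes. The 15 endothelial markers were all at 10 CPM or more in AEC and SEC, with summed levels of 14758 to 17296 CPM, against at most 314 CPM in any mesenchymal group. The 15 mesenchymal markers summed to 7428 CPM or more in each mesenchymal group, with 13 or 14 of them at 10 CPM or more. Old OPr stood apart: all 15 hematopoietic markers were at 10 CPM or more, their sum was 10773 CPM (S100a9 highest, 4041 CPM), and the sum in young OPr was 26.5 CPM, with 1 of 15 at 10 CPM and Cd52 at 0. Of the 29 old OPr cells, 8 carried 7 or more hematopoietic markers, all of them in cluster M5. In SEC the mesenchymal markers summed to 2026 CPM in young and 1276 CPM in old cells, with 11 of 15 at 10 CPM or more at each age, Serping1 highest, and Twist2 at 0 in old cells. Of the 70 young SEC, 12 carried 7 or more mesenchymal markers, and so did 7 of the 71 old SEC. The main results on OPr and SEC are therefore given with and without these cells.

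Serpinh1, which encodes HSP47, was the most abundant member per kilobase of exon in all 12 groups. In young cells its level was 811 CPM in MSC-L, 658 in MSC-S, 1415 in OPr, 840.0 in mOPr, 352 in AEC and 332 in SEC. Young OPr were thus highest, with an interval of 1402 to 1429 CPM and per-range levels of 1392 and 1434, above every other group in either range. Young MSC-L and young mOPr were close and their ranges overlapped (695 and 875 CPM against 705 and 963). Serpinh1 was also found in most young cells, with a count in 100.0% of young MSC-L and MSC-S and in 95.7% of young SEC.

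P4ha1 encodes a catalytic subunit of prolyl 4-hydroxylase. Its young levels were 388 CPM in mOPr, 221 in OPr, 162 in MSC-S, 83.4 in MSC-L, 65.1 in AEC and 50.4 in SEC. The OPr and mOPr gates therefore held more P4ha1 than marrow MSC-L in each range, whereas young MSC-S had 95.1 CPM in range 1, below MSC-L. MSC-L overlapped AEC over their ranges (57.9 and 129 CPM against 47.8, 65.9 and 74.4).

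The 3 lysyl hydroxylase genes had different orders across the populations. Plod2, whose product hydroxylates the collagen telopeptides, was highest in young OPr (538 CPM) and mOPr (386), lower in MSC-S (171) and MSC-L (37.4), and lowest in AEC (14.7) and SEC (12.0). Plod1, whose product hydroxylates the triple helix, was instead high in endothelial cells: 367 CPM in young SEC, 269 in mOPr, 249 in AEC, 179 in MSC-S, 133 in OPr and 73.6 in MSC-L. In range 3, the only range with SEC, young AEC had 399.9 CPM of Plod1, so the order of SEC and AEC is not settled. Plod3, whose product also adds sugars to hydroxylysine, varied least of the 3 with ranges pooled, from 73.8 CPM in young AEC to 194 in young mOPr. By range it ran from 36.4 CPM (young MSC-S, range 1) to 286 CPM (young mOPr, range 2). Exons of another gene overlap 11.9% of Plod3 (Znhit1, Mir702) and 6.42% of Plod2 (Gm38391), and counting ignored strand, so a part of these counts is uncertain.

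The founding lysyl oxidase, Lox, was highest in young MSC-L at 407 CPM, followed by MSC-S (253), mOPr (145), OPr (81.3), AEC (43.5) and SEC (31.1). Its young OPr level was 173 CPM in range 1 and 10.3 CPM in range 2, so its place in the order is loose. Loxl1, an oxidase tied to elastic fibres, had 246 CPM in young MSC-L, 101 in MSC-S, 59.5 in OPr, 48.7 in mOPr, 48 in SEC and 5.19 in AEC. Both genes were thus highest in central marrow MSC-L.

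The remaining oxidases peaked in endosteal gates. Loxl2 was 148 CPM in young MSC-S, 140.4 in mOPr, 67.9 in OPr, 63.8 in MSC-L, 36.2 in SEC and 3.53 in AEC. Loxl3 was 275 CPM in young mOPr, 231 in OPr, 202 in MSC-L, 113 in MSC-S, 26.5 in SEC and 8.58 in AEC, with 11.6% of its exon bases shared with Htra2. Loxl4 was 163 CPM in young OPr, 37.9 in MSC-S, 28.9 in mOPr, 7.15 in MSC-L, 4.73 in AEC and 1.19 in SEC. In young OPr, 47.7% of cells held a Loxl4 count, and 1 cell carried 25.5% of the counts.

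**Figure D1:**
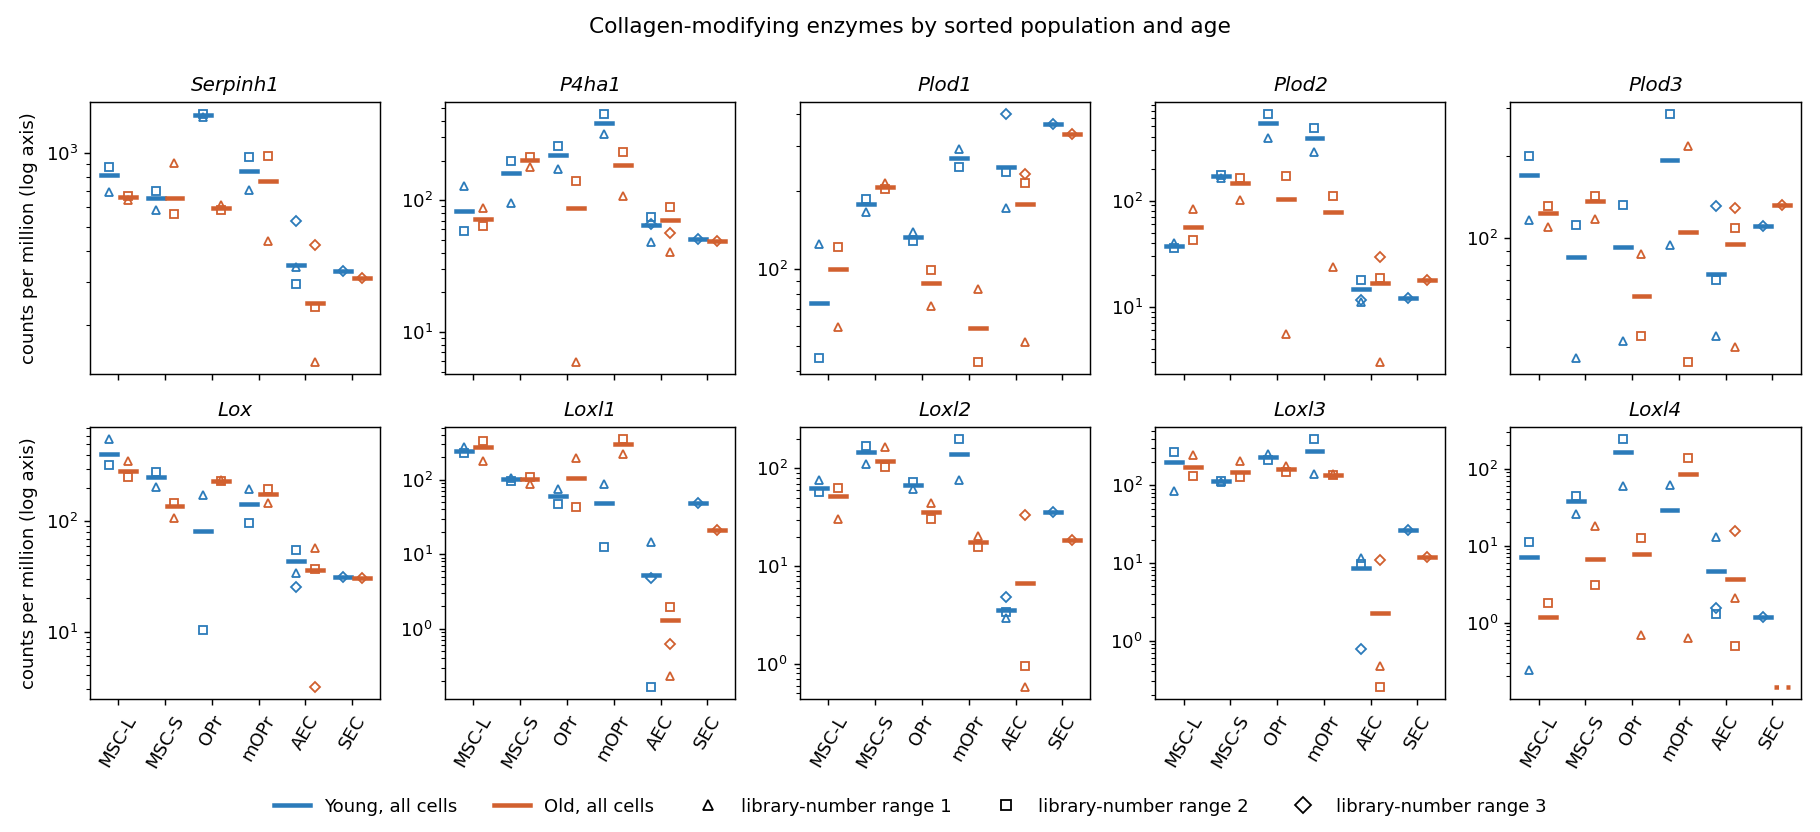
Level of each gene (vertical log axes, CPM of summed nuclear counts) in young (blue) and old (orange) cells of the 6 sorted populations (horizontal axes); lines are all cells of a group, open symbols are library-number ranges 1 to 3, and the dotted line marks old SEC, where Loxl4 had 0 counts, drawn at the level of 3 counts. Serpinh1 and Plod2 stand highest in young OPr (1415 and 538 CPM), Lox in young MSC-L (407 CPM) and Plod1, with ranges pooled, in young SEC (367 CPM).

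Young mesenchymal populations held more of these enzymes than young endothelial populations, with each population given equal weight. Of the 10 members, 8 were at least 2-fold higher in mesenchymal cells and 0 were at least 2-fold lower, beside 22.3% and 19.3% of the 17348 genes tested. The members' median log2 ratio was 2.25 and that of all genes tested was -0.05. With all cells Plod2 differed most, 283 CPM against 13.4 (log2 ratio 4.40, interval 4.30 to 4.51), close to Loxl4 (4.32, 4.11 to 4.53). Serpinh1 differed less, 931 CPM against 342 (1.44, 1.42 to 1.47). Plod1 was the exception in direction, 163 CPM in mesenchymal against 308 CPM in endothelial cells (-0.92, -0.95 to -0.88). SEC lie in range 3, which holds no mesenchymal cells, and with AEC alone the Plod1 ratio was 0.06 in range 1 and -0.65 in range 2, so its direction was not stable.

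A large part of the endothelial Loxl1 and Loxl3 counts came from cells that carried mesenchymal markers. Without those cells the endothelial Loxl1 level was 1.74 CPM in place of 26.6, and the log2 ratio 6.03 in place of 2.10. For Loxl3 the ratio was 6.09 in place of 3.55. The ratio of Plod2 was 4.29 and that of Plod1 -1.04, both near the values with all cells, although Plod1 was then past 2-fold lower.

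Shares within the lysyl oxidase family, taken per kilobase of exon, set the populations apart. Young MSC-L counts were 39.2% Lox and 34.4% Loxl1. Young MSC-S counts had Lox as the largest share, 36.7%. In young OPr the largest shares were Loxl3 (36.7%) and Loxl4 (28.4%), although Loxl4 made up 10.2% in range 1 and 43% in range 2. Young mOPr were led by Loxl3 with 43.4%, but Lox (32.5%) lay above Loxl3 (24.2%) in range 1, and 1 cell held 40.3% of the Loxl3 counts. Loxl3 thus led in 1 of 2 ranges of each endosteal progenitor gate, and the pair Lox and Loxl1 led in both ranges of MSC-L.

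Endothelial cells had small lysyl oxidase sums, 14.3 CPM per kilobase in young AEC and 33.8 in young SEC, against 217 in young MSC-L. Lox made up 63.6% of the young AEC sum, and 94.0% and 89.1% of the old AEC sum in ranges 1 and 2, but 5.04% in old range 3. In young SEC, Loxl1 led with 43.1%. Without the SEC that carried mesenchymal markers (58 young and 64 old cells left), Loxl2 made up 81.4% of the young and 75% of the old sum, and the sums were 8.39 and 4.54 CPM per kilobase. Loxl2 was thus the main lysyl oxidase of SEC that lacked mesenchymal markers, and Lox that of AEC in ranges 1 and 2.

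Shares among the lysyl hydroxylases, added after the values had been seen, also differed by population. Plod3 led in young MSC-L (67.9%), Plod2 in young OPr (71.3%), mOPr (46.4%) and MSC-S (41.1%), and Plod1 in young AEC (65.9%) and SEC (67%). In young OPr the Plod2 share was 70.8% in range 1 and 71.6% in range 2. In young cells Plod2 thus led in the 3 endosteal mesenchymal gates, Plod3 in marrow MSC-L and Plod1 in both endothelial types. In old cells Plod1 led in MSC-S (34.8%), close to Plod3 (34.4%), and Plod3 led in mOPr (50.1%). Neither lead held in range 2, where Plod3 led in old MSC-S (34.5%) and Plod2 in old mOPr (59.2%).

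**Figure D2:**
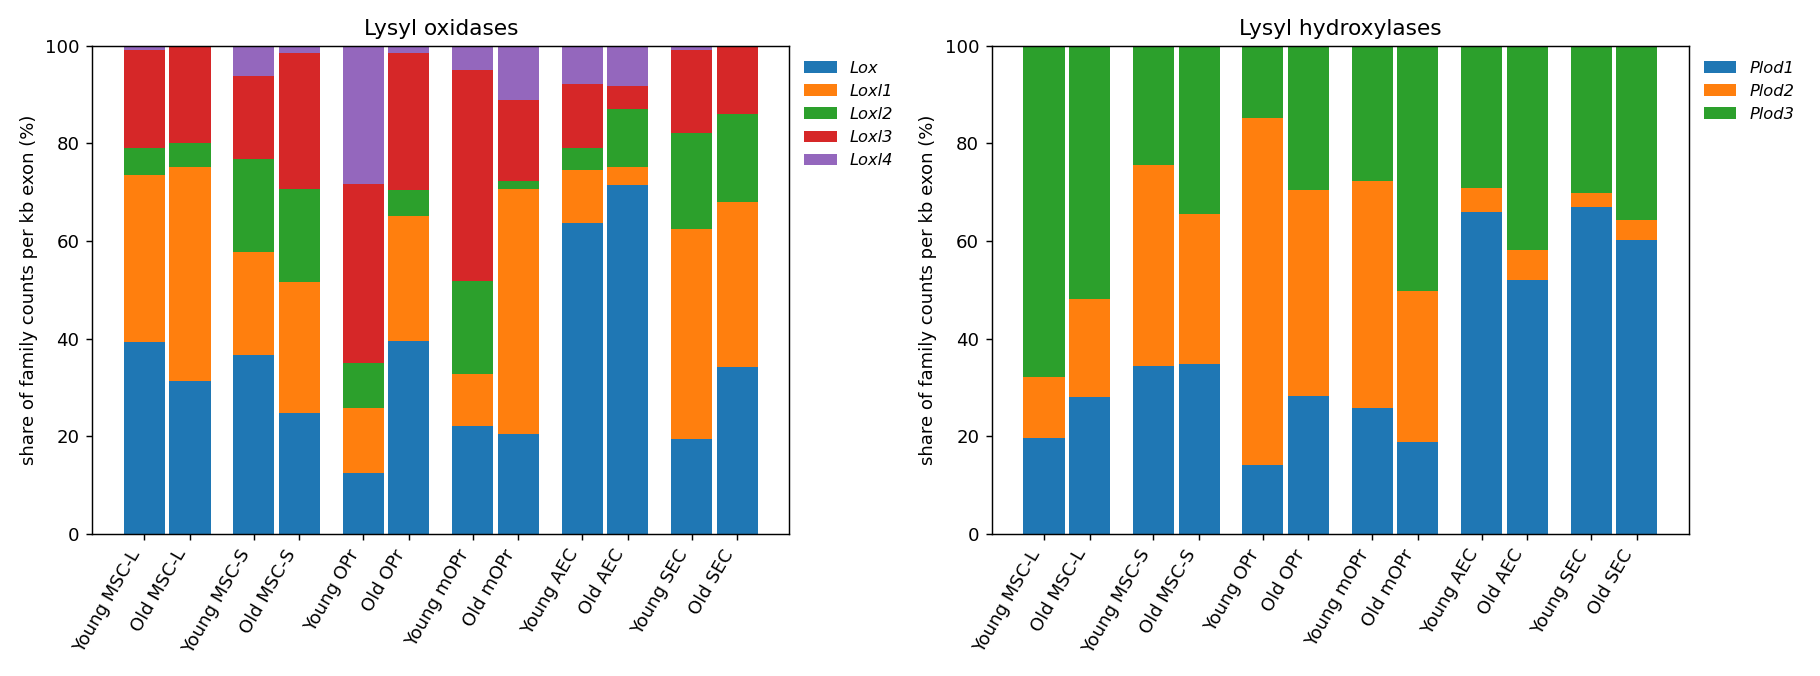
Share (vertical axes, percent of the family's counts per kilobase of exon) of each lysyl oxidase gene (left) and each lysyl hydroxylase gene (right) in young and old cells of the 6 sorted populations; each bar sums a group's cells. Plod2 fills 71.3% of the young OPr bar and 42.1% of the old OPr bar, and Loxl1 fills 10.7% of the young mOPr bar and 50.2% of the old mOPr bar.

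Single cells often held several lysyl oxidases. After thinning to 100000 counts per cell, 96.2% of young MSC-L held counts of 2 or more of the 5 genes (interval 87.0 to 99.5). The share was 83.1% in young MSC-S, 80.8% in young mOPr and 58.1% in young OPr. It was 27.1% in young SEC (17.2 to 39.1), or 13.8% without the cells with mesenchymal markers, and 9.64% in young AEC (4.25 to 18.1). Lox and Loxl1 were found together in 41 of 53 young MSC-L and in 2 of 83 young AEC at that depth.

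The deposited clusters, M1 to M16 and E1 to E7, divide the gates further, and clusters of at least 10 cells are described. None of the 10 members is a guide gene of the mesenchymal clustering, whereas Lox, Loxl1 and Loxl3 are guide genes of the endothelial clustering, so their endothelial cluster levels are a description. Cluster M3 (16 cells, 15 of them young) had the highest Serpinh1, 2847 CPM (2815 to 2879), and the highest Plod2, 1112 CPM (1092 to 1132). It also had the highest Loxl3 (358 CPM) and Loxl4 (366 CPM), whereas Lox was 8.47 CPM and Loxl1 1.77 CPM. All 7 chondrocyte markers were at 10 CPM or more in M3, and their sum was 103569 CPM with Col2a1 at 58347. M3 therefore combined the chaperone, Plod2, Loxl3 and Loxl4 with cartilage collagen, and held little Lox.

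Cluster M4 (13 cells), with a chondrocyte marker sum of 36160.2 CPM, had less Plod2 (453 CPM), Loxl4 (38.7 CPM) and Loxl2 (10.1 CPM) than M3. M1, the main MSC-L cluster (86 cells), had the highest Lox, 423 CPM, with 217 CPM of Loxl1. M2, the smaller MSC-L cluster (50 cells), had the highest mesenchymal Loxl1, 329 CPM, with 145 CPM of Lox. The leading oxidase thus differed between the MSC-L clusters, with Loxl1 at 31% of the family in M1 and 51.5% in M2.

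Among MSC-S-like clusters the oxidases also split. M12 had 403 CPM of Lox, M7 had 285 CPM of Loxl2 and 209 of Loxl1, and M15 had 219.8 CPM of Lox but 2.07 CPM of Loxl1. In M16, Loxl2 was 51.4% of the family and Serpinh1 was at 368 CPM, the lowest level among these mesenchymal clusters. Clusters of MSC-S-like cells thus differed in their leading oxidase.

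In the endothelial clusters, Lox was 95.3 CPM in E3 and 5.78 CPM in E4, both AEC-like. Loxl4, not a guide gene, made up 81.7% of the small lysyl oxidase sum in E5, but it was found in 5 of 37 cells and 1 cell held 51.3% of its counts. E7, the SEC-like cluster of 105 cells, had 33.6 CPM of Loxl2 and 393 CPM of Plod1. Plod1 was highest in E6, 564 CPM (547 to 581), where Lox had 0 counts. E1 (14 cells) held 273 CPM of Loxl1 and 234 CPM of Lox together with 13 of 15 mesenchymal markers at 10 CPM or more, which summed to 11269.7 CPM. The study marks doublets of both lineages among its endothelial clusters, and the part of such cells in the E1 levels was not tested.

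**Figure D3:**
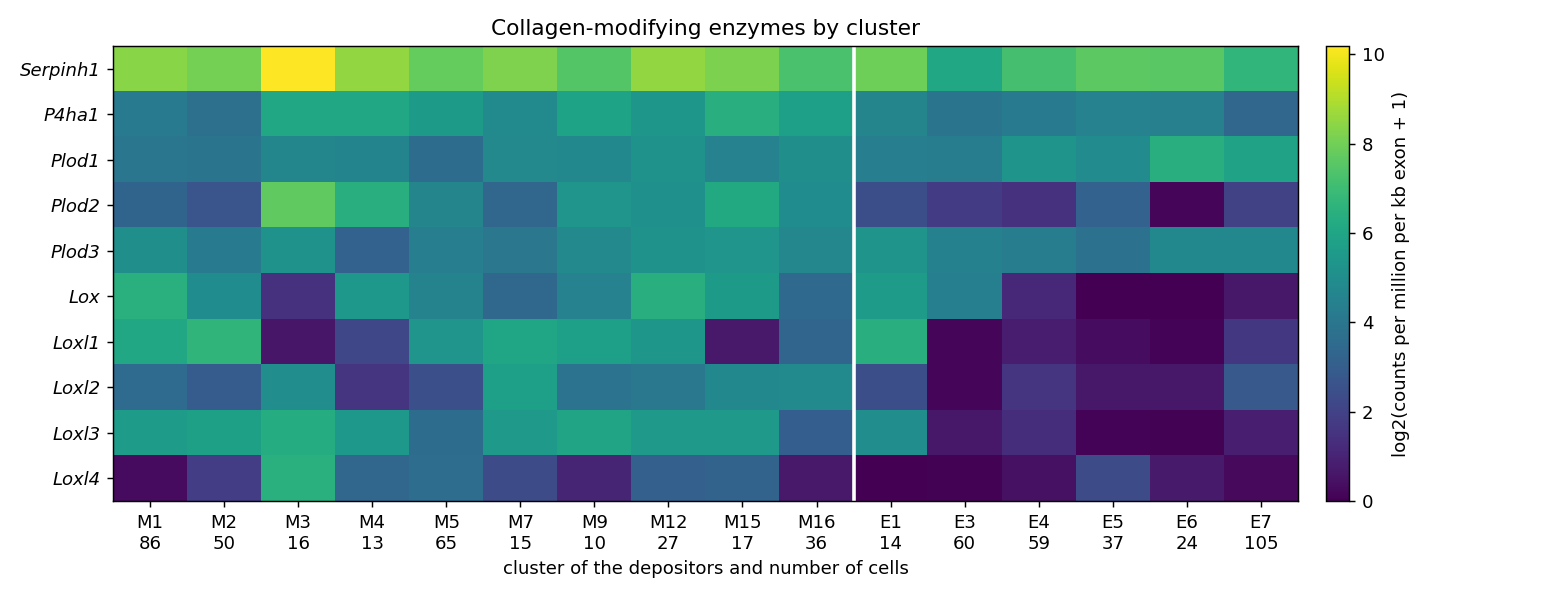
Colour gives log2(CPM per kilobase of exon + 1) of each gene (vertical) in each cluster with at least 10 cells (horizontal, cell number under the name; the white line parts mesenchymal from endothelial clusters). M3 has the brightest Serpinh1 and Plod2 squares (2847 and 1112 CPM) and a dark Loxl1 square (1.77 CPM), and Plod2 is dark in the endothelial clusters E6 (0.508 CPM) and E4 (9.16 CPM).

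Age had little common direction in the LepR+ marrow cells. In MSC-L, 0 members were at least 2-fold higher in old cells and 1, Loxl4, was lower, beside 15.4% and 12.8% of the 13143 genes tested. Both counts are near or under those shares. The members' median log2 ratio of old over young was -0.26 and the median of all genes was 0.02. Lox was 559 and 322 CPM in young ranges 1 and 2 and 355 and 251 CPM in old ones (log2 ratio -0.50, interval -0.55 to -0.45). Within each range old MSC-L held less Lox, while the old range 1 level lay above the young range 2 level. Serpinh1 was 811 CPM in young and 659 CPM in old MSC-L (-0.30, -0.33 to -0.27). Plod2 was 37.4 and 56.9 CPM (0.60, 0.47 to 0.74), higher in old cells in both ranges.

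Old and young MSC-L were spread somewhat differently over the clusters, with 23 old and 12 young MSC-L in M2 and 33 and 39 in M1. The 6 osteoblast markers of MSC-L, 5 of them at 10 CPM or more at each age, summed to 8686 CPM in young and 3452 CPM in old cells, with Ibsp highest, and their part in the Lox difference was not tested. Within M1 (44 old and 42 young cells), a comparison added after the values had been seen, the Lox ratio was -0.32, that of Plod2 0.67 and that of Serpinh1 0.04. Within M2 (36 old and 14 young cells) the Serpinh1 ratio was -0.57 and that of Lox -0.54, or -0.55 and 0.19 once the top cell at each age was left out. Cells of all gates are pooled in both, and of these 2 clusters only M2 had less Serpinh1 in old cells.

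MSC-S as sorted had no common direction with age, but Lox and Loxl4 were lower in old cells. In MSC-S, 0 members were at least 2-fold higher and 1, Loxl4, was lower in old cells, beside 10.4% and 13.3% of the 13381 genes tested, with a members' median of 0.00 and an all-gene median of -0.06. Lox was 205 and 279 CPM in young ranges and 108 and 146 CPM in old ones (-0.89, -0.94 to -0.84). All young Lox values lay above all old values, and the ratio was -0.92 in range 1 and -0.93 in range 2. Serpinh1 was 658 CPM in young and 653 CPM in old MSC-S (-0.01, -0.04 to 0.01), with ratios of 0.64 and -0.30 in the ranges. With less Lox, the largest oxidase share of old MSC-S was Loxl3 (27.9%), close to Loxl1 (26.8%) and Lox (24.8%). The gate held other clusters at each age, with 10 old and 0 young cells in M9, 0 old and 5 young in M15 and 21 old and 14 young in M16. Within clusters, compared after the values had been seen, Lox was lower in old cells of M12 (-0.65) but higher in old cells of M7 (1.92) and M16 (0.43). The lower Lox of old MSC-S was thus not common to its clusters. The 7 chondrocyte markers of MSC-S, 5 at 10 CPM or more at each age, summed to 3412 CPM in young and 278 CPM in old cells, with Chad highest, and their part in the age differences was not tested.

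Loxl4 was lower in old cells of 3 mesenchymal gates. The gene was found in 11.3% of young MSC-L, 27.1% of young MSC-S and 47.7% of young OPr. It was 37.9 CPM in young and 6.76 CPM in old MSC-S (-2.49, -2.68 to -2.30), with ratios of -0.54 and -3.87 in ranges 1 and 2. In MSC-L it was 7.15 and 1.18 CPM (-2.60, -3.30 to -1.96), resting on 163 and 23 counts, of which 46% and 78.3% lay in 1 cell of each age. In OPr it was 60.3 and 242 CPM in young ranges against 0.696 and 12.7 CPM in old ones (-4.37, -4.61 to -4.15), with no overlap of the ranges. Within clusters, looked at after the values had been seen, Loxl4 was lower in old cells of M2, M7, M12 and M16 (-2.55, -1.56, -2.61 and -2.70), nearly equal in M1 (-0.20, -1.12 to 0.72) and higher in old cells of M5 (1.15), where the ratio was -2.28 without the highest cell of each age. Without those cells the ratio was -3.39 in M2, -2.69 in M7, -7.20 in M12 and -1.06 in M1. In M16 it was then a bound of -1.59, as 1 cell held 100.0% of the old counts.

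With ranges pooled, Serpinh1 and P4ha1 had their widest age differences in OPr. Of the 10 members, 1 (Lox) was at least 2-fold higher in old OPr and 4 (Loxl4, Plod2, P4ha1 and Serpinh1) were lower, beside 27.2% and 21.1% of the 13418 genes tested. The members' median was -0.75 and the all-gene median 0.15. Without the 8 cells with hematopoietic markers, 2 (Lox and Loxl1) were higher and 3 (Loxl4, Plod2 and P4ha1) lower, beside 27.8% and 19.7% of all genes, with a members' median of -0.35. With all cells, Serpinh1 was 1392 and 1434 CPM in young ranges and 614 and 588 CPM in old ones (-1.24, -1.27 to -1.21). The ages thus did not overlap by range, but values by range without those 8 cells are not given here. Plod2 was 389.9 and 653 CPM in young ranges and 5.57 and 171 CPM in old ones (-2.37, -2.44 to -2.31). P4ha1 was 172 and 258 CPM in young ranges and 5.92 and 141 CPM in old ones (-1.35, -1.43 to -1.27). All 3 genes were lower in old OPr in both ranges, Plod2 and P4ha1 most so in range 1.

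Single OPr cells varied widely. The median cell held 1051 CPM of Serpinh1 in young and 9.44 CPM in old OPr, and the highest cells held 5292 and 4493 CPM. For Plod2 the medians were 326 and 2.55 CPM and the highest cells 2127 and 1097 CPM. Without the 8 cells with hematopoietic markers, the old medians were 497 CPM of Serpinh1 and 17.4 CPM of Plod2. The old Plod2 median was thus low with and without them, and that of Serpinh1 moved widely.

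Lox was higher in old OPr, 235 CPM against 81.3 (1.53, 1.46 to 1.60), but its young ranges disagreed. It was 173 and 10.3 CPM in young ranges and 236 and 234 CPM in old ones, so the log2 ratio was 0.45 in range 1 and 4.50 in range 2. In old OPr, 1 cell held 32.4% of the Lox counts.

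The cells in the OPr gate were not of the same clusters at both ages. Young OPr held 15 of 44 cells in M3, 7 in M4, 14 in M5, 5 in M15 and 3 in M1, and old OPr held 1 of 29 in M3, 3 in M4, 15 in M5, 7 in M1 and 3 in M2. The chondrocyte markers, 7 of 7 at 10 CPM or more at each age, summed to 45748 CPM in young (Col2a1 highest, 23589) and 5992 CPM in old OPr (Chad highest, 4302). The 6 MSC-L markers, all at 10 CPM or more, summed to 5589 and 22695 CPM, with Cxcl12 highest. The 8 mural markers, 5 of them at 10 CPM or more at each age, summed to 800.4 and 2368 CPM. Without the 8 cells with hematopoietic markers the log2 ratio was -0.83 for Serpinh1, -1.96 for Plod2, -1.14 for P4ha1, -3.96 for Loxl4 and 1.95 for Lox. The Serpinh1 difference was then under 2-fold, and the part of the other markers in the result was not tested.

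In subsets of the OPr gate chosen after the values had been seen, the members parted ways. Among cells of M3 to M5 without hematopoietic markers (11 old and 36 young), the ratio was -1.18 for Serpinh1, -1.37 for Plod2, -3.56 for Loxl4 and 2.56 for Lox, but -0.09 for P4ha1. The Lox value rested mainly on M4, where 1 cell held 86.2% of the Lox counts, and in M5 Lox was 0.771 CPM in old and 130.5 CPM in young cells (-7.40). There 1 young cell held 92.5% of the young counts, and the ratio was -4.65 with the top cell at each age left out. In M5, Serpinh1 was 1.54 CPM in 15 old and 594 CPM in 14 young cells. The 7 old M5 cells without hematopoietic markers had 1.88 CPM of Serpinh1, and their median number of the 15 mesenchymal markers was 3.00, against 6.00 in the young M5 cells of this gate. These old cells were thus low both in Serpinh1 and in mesenchymal markers.

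Plod2 and P4ha1 were lower in old mOPr, as in old OPr, whereas Loxl4 was past 2-fold in the opposite direction. Of the 10, 2 (Loxl1 and Loxl4) were at least 2-fold higher in old mOPr and 4 (Loxl2, Plod1, Plod2 and P4ha1) were lower, beside 25.8% and 20.7% of the 11237 genes tested, with a members' median of -0.94 and an all-gene median of 0.12. Plod2 was 284 and 478 CPM in young ranges and 23.9 and 111 CPM in old ones (-2.31, -2.41 to -2.21). Plod1 was 292 and 248 CPM in young ranges and 83.5 and 43.4 CPM in old ones (-2.19, -2.31 to -2.08). Loxl2 was 75.5 and 199.8 CPM in young ranges and 20.6 and 15.9 CPM in old ones (-2.99, -3.19 to -2.79). For each of these 3 genes, both old values lay below both young values.

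P4ha1 was 319 and 451 CPM in young mOPr ranges and 108 and 231 CPM in old ones (-1.08, -1.15 to -1.01), and 1 old cell held 56.7% of the old counts. In range 2 alone the ratio was -0.97, and without the cells of clusters M1 and M2 it was -0.56, both under 2-fold. Serpinh1, in contrast, was 840.0 CPM in young and 767 CPM in old mOPr (-0.13, -0.17 to -0.09). By range it was 705 and 963 CPM in young and 439 and 969.9 CPM in old mOPr. The lower Plod1 and Plod2 of old mOPr thus stood beside a chaperone level that was nearly equal in range 2 and lower in range 1.

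Loxl1 was higher in old mOPr, 223 and 351 CPM in the old ranges against 88.4 and 12.3 CPM in the young ones (2.63, 2.52 to 2.75). Without the cells of clusters M1 and M2 it was 171 CPM in old and 48.2 CPM in young mOPr (1.83). The 12 old cells left were all in M5, and 1 of them held 90.5% of their Loxl1 counts. Without that cell their level was 17.3 CPM, so the higher value outside M1 and M2 rested on 1 cell. The Loxl1 share of the lysyl oxidases was 10.7% in young and 50.2% in old mOPr. The higher old Loxl4 level (85.1 CPM against 28.9; 1.56, 1.39 to 1.72) came from 1 cell with 98.9% of the old counts, and the ratio without the highest cell of each age was -3.95.

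The mOPr gate also held other clusters at each age. Of 26 old cells, 10 were in M2, 4 in M1 and 12 in M5, whereas young cells were in M5 (7), M15 (7), M12 (4) and others, with 2 in M2. The 6 MSC-L markers, all at 10 CPM or more, summed to 998 CPM in young and 21133 CPM in old mOPr, with Cxcl12 highest. The 8 mural markers summed to 532 CPM in young (5 at 10 CPM or more) and 2361 CPM in old mOPr (6, Acta2 highest), and the part of such cells in the Loxl1 level was not tested. The 7 chondrocyte markers summed to 4495 CPM in young (6 at 10 CPM or more) and 231 CPM in old mOPr (2), with Chad highest, and their part in the Plod2 difference was not tested. Within M5 (12 old and 7 young mOPr cells, chosen after the values had been seen), the ratio was 1.89 for Loxl1, -1.72 for Plod1, -1.53 for Plod2, -1.88 for Loxl2 and -0.65 for Serpinh1. Without the highest cell of each age, these were -0.70, -1.56, -0.45, -1.96 and 0.63. The differences of Plod1 and Loxl2 were therefore also present within that cluster, whereas those of Loxl1, Plod2 and Serpinh1 rested there on single cells.

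With ranges pooled, AEC showed age differences under 2-fold in the abundant members. Of the 10 members, 0 were at least 2-fold higher and 2 (Loxl1 and Loxl3) were lower in old AEC. Among the 14042 genes tested, 11.1% were higher and 13.9% lower. The members' median was -0.33 and the all-gene median -0.03, so the pooled counts were near the shares of all genes. In range 1 alone, Loxl1 (-5.97), Loxl2 (-2.35), Loxl3 (-4.66), Loxl4 (-2.63), Plod1 (-1.74), Plod2 (-1.87) and Serpinh1 (-1.28) were past 2-fold lower, and Lox (0.78) was higher. Serpinh1 was 344, 294 and 529 CPM in young ranges and 142, 237 and 421 CPM in old ones (-0.51, -0.55 to -0.47). Old AEC were lower in each range, and the ranges overlapped between ages. Plod1 was 173, 238 and 399.9 CPM in young ranges and 51.8, 216 and 233 CPM in old ones (-0.48, -0.53 to -0.43). Both genes were thus lower in each range, and past 2-fold in range 1 alone (-1.28 for Serpinh1 and -1.74 for Plod1). The gate held 2 old and 8 young cells in E6, which had the highest Plod1, and 34 and 24 in E3. The 5 sinusoidal markers summed to 1744 CPM in young (4 at 10 CPM or more) and 1096 CPM in old AEC (3). Within clusters, compared after the values had been seen, the Plod1 ratio was -1.27 in E4, 0.57 in E3 and 0.95 in E5, so the lower Plod1 of old AEC was not common to its clusters.

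The AEC calls of Loxl1 and Loxl3 rested on few counts and did not hold across ranges. Loxl1 was 5.19 and 1.29 CPM (-2.01, -2.51 to -1.53), with ratios of -5.97, 3.58 and -2.93 in ranges 1 to 3. Loxl3 was 8.58 and 2.24 CPM (-1.94, -2.32 to -1.58), with ratios of -4.66, -5.25 and 3.81.

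In SEC, 0 of the 9 members tested were at least 2-fold higher and 2 (Loxl1 and Loxl3) were lower in old cells, beside 14.6% and 8.80% of the 12982 genes tested. The median over all 10 members was -0.12, with Loxl4 (26 young and 0 old counts, under the filter) at its bound, and the all-gene median was 0.06. Loxl1 was 48 CPM in young and 20.9 CPM in old SEC (-1.20, -1.36 to -1.03), and -0.04 without the cells that carried mesenchymal markers. Loxl3 was 26.5 and 12.0 CPM (-1.14, -1.36 to -0.92), and 0.51 without those cells. Both differences were thus absent once the cells with mesenchymal markers were left out. Loxl2 was 36.2 and 18.5 CPM (-0.97, -1.15 to -0.79), and -1.0 without those cells. It was then the only 1 of 6 members tested that was at least 2-fold lower, and 0 were higher. Among the 12319 genes tested without those cells, 8.71% were lower and 16.8% higher. The gate held 44 old and 59 young cells in E7 and 12 old and 2 young in E6, and the 6 arteriolar markers summed to 107 CPM in young (2 at 10 CPM or more) and 583 CPM in old SEC (5). Within E7, compared after the values had been seen, the Loxl2 ratio was -0.52, smaller than over the whole gate.

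Plod1 and Serpinh1, the abundant members of SEC, were nearly equal at both ages, with ratios of -0.14 (-0.19 to -0.09) and -0.10 (-0.15 to -0.05).

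**Figure D4:**
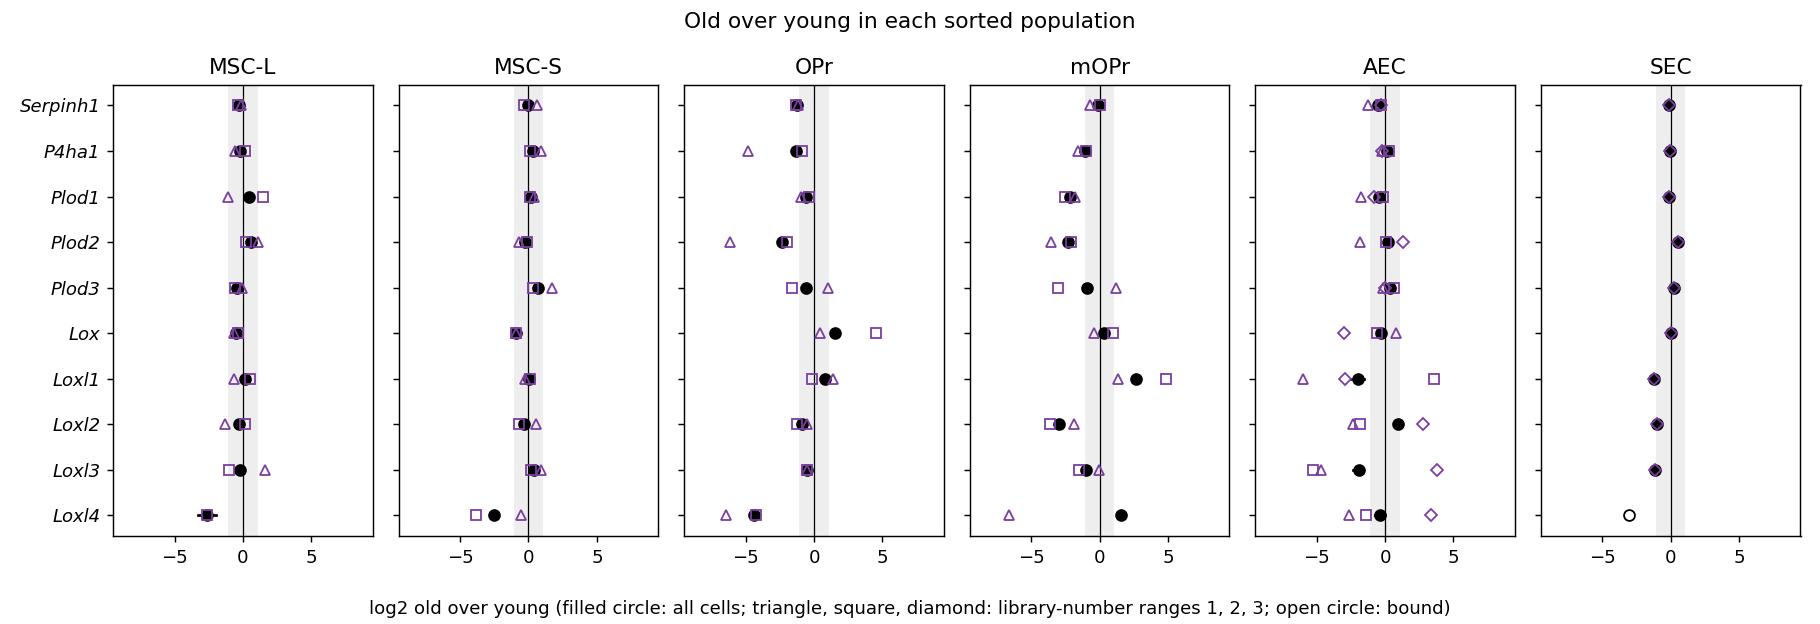
Log2 ratio of old over young level (horizontal axes) of each gene (vertical axis) in the 6 sorted populations; filled circles are all cells with 95% counting intervals, triangles, squares and diamonds are library-number ranges 1, 2 and 3, the open circle is a bound for 0 counts (other bounds are not drawn) and grey marks ratios under 2-fold. Plod2 lies left of grey in OPr (-2.37) and mOPr (-2.31) in both ranges, Loxl1 lies right of it in mOPr (2.63), and the filled Serpinh1 circle is left of it in OPr (-1.24) alone, as is the AEC triangle of range 1 (-1.28).

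Other genes of the pathway were grouped in 8 lists of 62 genes. In OPr, 6 of 9 tested genes of prolyl hydroxylation were at least 2-fold lower in old cells and 0 higher, with a median of -1.47, beside 21.1% of all genes lower. Without the cells with hematopoietic markers, 5 of 9 were lower and 0 higher (-1.06), beside 19.7% of all genes. They included P3h1, a prolyl 3-hydroxylase (256 CPM in young and 36.5 in old OPr, -2.81), and P4ha3, another prolyl 4-hydroxylase subunit (11.5 and 0.421 CPM, -4.77). Of 5 genes of lysyl hydroxylation and glycosylation, 2 were lower and 0 higher: Colgalt2, a collagen galactosyltransferase (-1.92), and Fkbp10, a chaperone of telopeptide hydroxylation (-1.09). Of 10 folding and export genes, 3 were lower and 0 higher (median -0.37). Without the cells with hematopoietic markers, 1 of 5 lysyl hydroxylation genes was lower and 0 higher, and of the folding genes 3 were lower and 1 higher (-0.06). The prolyl hydroxylation genes thus stood above the share of all genes, and the folding genes were nearer to it.

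The fibrillar collagens differed more than the enzymes. In OPr, 10 of 11 fibrillar collagens were at least 2-fold lower in old cells and 1 was higher, with a median of -3.25, beside 27.2% higher and 21.1% lower among all genes, and the counts were the same without the cells with hematopoietic markers (-2.83). Col2a1, the main collagen of cartilage, was 23589 CPM in young and 509 CPM in old OPr (-5.53), and Col11a1 2311 and 66.9 CPM (-5.11). Elastin (Eln, 4.40 CPM in young and 27.1 in old OPr, 2.62) and Col4a1 (59.6 and 184 CPM, 1.63) were instead higher in old cells. In mOPr, 7 of 11 were lower and 0 higher (median -1.69; 20.7% of all genes were lower), with Col3a1 at 2826 and 381 CPM (-2.89). In MSC-L, 3 of 10 were lower and 1 higher (median -0.39; 12.8% of all genes lower), and in MSC-S 4 of 11 were lower and 0 higher (-0.47; 13.3%). In AEC, 1 of 9 was lower and 2 were higher (0.75), beside 13.9% of all genes lower and 11.1% higher. In SEC, 3 of 8 were lower and 2 higher (-0.54), beside 8.80% lower and 14.6% higher. Without the SEC with mesenchymal markers, 0 of 7 were lower and 4 higher (1.64), beside 8.71% lower and 16.8% higher. The populations with the lowest Plod2 ratios thus also had the lowest fibrillar collagen medians.

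Partners of the lysyl oxidases were mixed. Of 6 copper and scaffold genes, 1 was at least 2-fold higher and 3 were lower in old OPr (median -1.10). Without the cells with hematopoietic markers, 2 were higher and 3 lower (-0.84). In old mOPr, 2 of 6 were higher and 2 lower (-0.56). Among all genes, 27.2% were higher and 21.1% lower in OPr, and 25.8% and 20.7% in mOPr. Fbln5, a fibulin that binds LOXL1 in elastic fibres, was 70.8 CPM in young and 1434 CPM in old mOPr (4.34), the same side as Loxl1, and 233 and 973 CPM in OPr (2.06). Fn1, fibronectin, was lower in both, with -4.38 in mOPr and -2.55 in OPr. Of 8 tested hypoxia genes, 2 were lower in old OPr and 0 higher (median -0.63), or 5 and 0 without the cells with hematopoietic markers (-1.24), above the 19.7% of all genes lower there, and of 9 tested in mOPr, 1 was lower and 2 were higher (-0.40). With all cells these counts are near or under the shares of all genes, 21.1% lower in OPr and 20.7% lower and 25.8% higher in mOPr.

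In MSC-L, 0 genes in either direction passed 2-fold among 8 of prolyl hydroxylation, 4 of lysyl hydroxylation and 10 of folding. In MSC-S, 1 of 9, 1 of 5 and 0 of 10 were lower and 0 were higher. Among all genes 15.4% were higher and 12.8% lower in old MSC-L, and 10.4% and 13.3% in old MSC-S. In AEC, where 13.9% of all genes were lower, 3 of 5 lysyl hydroxylation genes were lower (median -1.10), Fkbp10 among them (57.9 and 27.1 CPM, -1.10), and 2 of the 3 other substrates, Col4a1 (-1.05) and Col4a2 (-1.05). There 0 of 8 prolyl hydroxylation genes and 2 of 10 folding genes (median 0.09) were lower, and 0 were higher. In SEC, where 14.6% of all genes were higher and 8.80% lower, 1 of 8 prolyl hydroxylation genes was higher, P4ha2 (1.08), and 1 lower, P3h3 (-1.42). Of 5 lysyl hydroxylation genes there, 1 was higher and 0 lower, and of 10 folding genes 0 were higher and 1 lower. Among the 6 gates, OPr had the most genes of these lists past 2-fold, and it also had the largest share of all genes past it (27.2% higher and 21.1% lower).

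Between cell types the lists followed the enzymes in part. In young mesenchymal over endothelial cells, 11 of 11 fibrillar collagens were higher (median 5.81), 8 of 8 propeptide-processing genes (3.70), 6 of 9 prolyl hydroxylation genes (1.62), 3 of 5 lysyl hydroxylation genes (1.64) and 5 of 10 folding genes (0.87), and 0 of these were lower, beside 22.3% higher and 19.3% lower among all genes. Of 6 copper and scaffold genes 3 were higher and 1 lower, and of 10 hypoxia genes 1 was higher and 2 were lower. The basement membrane collagens Col4a1 (-1.70) and Col4a2 (-1.79) and elastin, Eln (-2.97), were higher in endothelial cells. Fibrillar collagens were thus higher in mesenchymal and type IV collagens in endothelial cells.

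The genes most like each member over the 12 group sums, by Pearson correlation of log2(CPM + 1) among 13341 genes, are a description. For Plod2 they were Sox9 (0.99), the transcription factor of chondrocytes, Sdc4 (0.97) and Trps1 (0.97). For Lox they were Plce1 (0.99), Nnmt (0.96) and Lmo4 (0.94), and for Loxl1 they were Srpx (0.98), Svep1 (0.97) and C3 (0.97). For Serpinh1 they were Fibin (0.95), Dixdc1 (0.94) and Kdelr3 (0.93), the last a retrieval receptor of the endoplasmic reticulum. P4ha1 was closest to Boc (0.95), Fam180a (0.95) and Frmd7 (0.94), and Plod1 to Piezo1 (0.93), Pgm1 (0.93) and Cmtm8 (0.92). Plod3 had weaker matches, Slc4a2 (0.87), Vwa8 (0.84) and Ggh (0.84). Loxl2 was closest to Ltbp3 (0.95), Prelp (0.92) and Olfm1 (0.92), Loxl3 to Chpf (0.98), Fam46a (0.98) and Abi3bp (0.97), and Loxl4 to Cacna1g (0.92), Golph3 (0.92) and F3 (0.92). Among the members themselves the closest pairs were Loxl3 with Serpinh1 (0.91) and Plod2 with P4ha1 (0.90).

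Correlations over cells, also a description since cells share libraries and differ in depth, gave like pairs. Over 73 OPr cells of both ages, Plod2 had a Pearson correlation of 0.74 with Col11a1, 0.72 with Col2a1 and 0.69 with P4ha1, and Serpinh1 0.70 with Fkbp10. Without the cells with hematopoietic markers, the values for Plod2 were 0.70, 0.67 and 0.66, and that of Serpinh1 with Fkbp10 was 0.61. OPr cells rich in Plod2 were thus rich in cartilage collagens. Over 141 SEC, Lox had 0.78 with Loxl1, and Loxl1 had 0.78 with Col1a2. Without the SEC with mesenchymal markers these values were 0.29 and 0.40, so the higher values rested on those cells.

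RefSeq promoters (build GRCm38.p6, 250 bases before to 50 bases after the start) were found for 5 of the 10 members. Those of Loxl4, P4ha1 and Serpinh1 are shown because these 3 members were lower together in old OPr. They were searched on both strands for ACGTG, the core of the hypoxia response element, and for TTCNNGAA, a core of the heat shock element, both chosen after the expression values had been seen. ACGTG was found once each in P4ha1 and Serpinh1, and in Plod3, but not in Loxl4 or Plod1, and it occurs in 19.6% of all 32851 promoters of 300 bases. TTCNNGAA was found in none of the 5 and occurs in 8.52% of promoters. Capitals mark ACGTG or its reverse complement CACGT. The windows are chr19:42612757-42613056 on the minus strand for Loxl4, chr10:59323046-59323345 on the plus strand for P4ha1 and chr7:99353190-99353489 on the minus strand for Serpinh1, and a match is a description of letters, not of binding.
Loxl4: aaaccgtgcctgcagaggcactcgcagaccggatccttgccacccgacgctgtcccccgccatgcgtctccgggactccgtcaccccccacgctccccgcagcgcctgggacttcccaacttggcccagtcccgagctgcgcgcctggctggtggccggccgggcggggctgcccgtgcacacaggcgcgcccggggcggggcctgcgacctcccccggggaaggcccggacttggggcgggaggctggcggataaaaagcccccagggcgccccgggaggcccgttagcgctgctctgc
P4ha1: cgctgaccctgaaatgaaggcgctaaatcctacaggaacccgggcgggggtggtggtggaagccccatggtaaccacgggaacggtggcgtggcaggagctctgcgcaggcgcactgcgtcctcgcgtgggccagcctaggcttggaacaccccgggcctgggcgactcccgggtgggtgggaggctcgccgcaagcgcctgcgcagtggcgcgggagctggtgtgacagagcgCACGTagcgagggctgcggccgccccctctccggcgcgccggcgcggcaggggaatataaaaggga
Serpinh1: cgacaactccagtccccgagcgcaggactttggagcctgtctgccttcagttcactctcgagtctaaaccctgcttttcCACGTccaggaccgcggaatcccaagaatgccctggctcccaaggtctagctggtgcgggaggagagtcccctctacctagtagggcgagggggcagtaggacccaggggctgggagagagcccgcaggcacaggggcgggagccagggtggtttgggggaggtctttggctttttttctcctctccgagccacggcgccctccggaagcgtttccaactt

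Across ages and gates, then, Plod2 was lower in old OPr and old mOPr in both library ranges, and Serpinh1 was lower in both ranges of old OPr. The Serpinh1 difference was under 2-fold without the 8 old OPr cells with hematopoietic markers. Among the mOPr of cluster M5 the Plod2 ratio was -0.45 without the highest cell of each age. Lox was lower in both ranges of old MSC-L and old MSC-S, and Loxl1 was higher in both ranges of old mOPr. Among the mOPr of cluster M5 the Loxl1 ratio was -0.70 without the highest cell of each age. As the labels link no cell to a mouse, these differences cannot be told apart from differences between the mice or libraries used, and also not from the different clusters that the gates held at each age.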

How the data were processed

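Single-cell RNA sequencing libraries of sorted mesenchymal and endothelial cells from mouse bone were described by the counts that the authors deposited, 1 column per cell for 661 cells. According to the submitters' processing notes, GSNAP aligned the reads to the mouse genome (GRCm38.p4) and the spike-in sequences, genes came from Ensembl release 81, and reads per gene were counted with HTSeq-count without regard to strand. The plates carried no molecular identifiers. The methods give 100000 endogenous reads as a minimum per cell and 20% as the highest mitochondrial share. In the deposited counts 7 cells had fewer than 100000 nuclear counts, 0 exceeded 20% (highest 14.9%), and all 661 were kept. Counts per cell ran from 58034 to 1503374 with a median of 425611. Repeated column names numbered 0, and no doublet caller was run, so doublets may be among the cells.

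Of 46078 gene entries, 270 repeated symbols were summed and 37 mitochondrial genes were set aside, which left 45771 nuclear genes. Counts were summed over the cells of each age and population, deposited cluster or library-number range and divided by summed nuclear counts (CPM). Levels were compared between genes per kilobase of merged exons in GENCODE M21 (GRCm38). Exact Poisson intervals were given for levels, exact binomial intervals for shares and ratios, and an interval from Poisson variances for ratios of population means. A group with 0 counts was given 3 counts, and its ratio is a bound. Genes counted beside the members had at least 100 counts over both ages in at least 5 cells, and 2-fold was the threshold. Shares of cells with several lysyl oxidases used cells thinned to 100000 counts with a fixed seed. Cells with 7 or more of 15 hematopoietic or mesenchymal markers at 10 CPM or more were set apart. The ratio code was tested on simulated data.

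The members and lists were chosen with earlier results of these data known. Named genes are the 10 members, at most the 4 genes of each list with the largest ratio and the most abundant per kilobase, and the 3 genes most like each member among genes with at least 1000 counts. Lysyl hydroxylase shares, age ratios within clusters, subsets of the OPr and mOPr gates, marker levels by cluster, the clusters held by each gate and the motifs were added after the values had been seen. Alternatives were mean CPM per cell, median-of-ratios size factors, thinning, a pseudocount of 1 CPM, no filter, single ranges, leaving out marker-bearing cells or the highest cell of each age, and identity groups of clusters. The study gives 3 young and 4 old mice for these cells, which the labels do not link to cells. Reads, spike-ins and surface marker records were not analysed here. Tables were handled in Python 3.11.15 with pandas 2.3.3 and numpy 2.4.6, intervals came from scipy 1.17.1, and figures were drawn in matplotlib 3.10.9.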

Additional observations from a re-analysis of the deposited data

Results flagged for a closer look

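Loxl1 stood out because its log2 ratio of old over young had opposite signs in 2 populations, 2.63 in mOPr, where it was higher in old cells in both library ranges (1.33 and 4.83), and -1.20 in SEC, which has 1 range. The difference between these log2 ratios was 3.83, and the difference was not tested. Without the SEC that carried 7 or more mesenchymal markers, the SEC value was -0.04. Among the old mOPr of cluster M5, 1 cell held 90.5% of the Loxl1 counts, and the M5 ratio was -0.70 without the highest cell of each age.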

How the results depend on the processing

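No paired analysis was possible because the numbers in the cell names only count cells, and no result comes from a test. Of 18 age ratios past 2-fold, which include Loxl4 in SEC (26 young and 0 old counts, under the filter), 13 kept their sign under every alternative listed here, taken singly. All kept it with size factors (18 of 18), thinned counts (18 of 18, with 16 still past 2-fold), a pseudocount of 1 CPM (18 of 18), mean CPM per cell (17 of 17), identity groups (12 of 12) and without hematopoietic-marker cells (8 of 8). With range 1 alone 13 of 14 kept it, with range 2 alone 14 of 15, with range 3 alone 1 of 2, without the highest cells 17 of 18, and without endothelial cells with mesenchymal markers 4 of 5. In 3 subsets of the OPr and mOPr gates, chosen after seeing the data, 11 of 11 kept it in clusters M3 to M5 and outside M1 and M2, and 10 of 11 in M5 alone. Fewer were still past 2-fold: 15 of 17 with mean CPM per cell and 10 of 12 with identity groups. With range 1 alone it was 11 of 14 and with range 2 alone 12 of 15. Without hematopoietic-marker cells it was 7 of 8, without endothelial cells with mesenchymal markers 3 of 5, and in each gate subset 9 of 11. Kept signs include near-equal levels, as for P4ha1 in OPr (-0.01, -0.15 to 0.14, in M5 alone) and Loxl1 in SEC without mesenchymal-marker cells.

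The signs turned for Lox in OPr (-7.40 in M5 alone, -4.65 there without the highest cells), for Loxl4 in mOPr (-6.59 with range 1 alone, -3.95 without the highest cell of each age), for Loxl1 in AEC (3.58 with range 2 alone), for Loxl3 in AEC (3.81 with range 3 alone) and for Loxl3 in SEC (0.51 without cells with mesenchymal markers); the cause was not tested. With 2 choices combined, signs also turned, among others, for P4ha1 in OPr (0.84 in M5 without hematopoietic-marker cells, 0.69 in M5 without the highest cells) and for Loxl1 in mOPr (-0.70 in M5 without the highest cells). So did Loxl4 of MSC-L (1.23 in the MSC-L-like identity group with range 1 alone) and Loxl1 of SEC (0.37, -0.35 to 1.09, in E7 without mesenchymal-marker cells). The cause was not tested. The members' median ratio was -0.57 in MSC-L and 0.47 in MSC-S with range 1 alone, against -0.26 and 0.00 with all cells, and -4.05 in OPr in M5 alone, against -0.75; the cause was not tested. In AEC with range 1 alone, every member but Lox (0.78) was lower in old cells, down to -5.97 for Loxl1 and -4.66 for Loxl3. With all cells the members' median in AEC was -0.33. The members' median of mesenchymal over endothelial cells was 2.20 to 3.00 under the alternatives.

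Without the filter, more genes passed 2-fold in every population, since genes with few counts were added. Higher and lower in old cells were 5073 and 3600 genes in MSC-L (2024 and 1688 with the filter), 3487 and 4592 in MSC-S (1390 and 1785), 6198 and 6115 in OPr (3647 and 2835), 5502 and 4969 in mOPr (2896 and 2324), 3745 and 4953 in AEC (1559 and 1954), and 4696 and 3100 in SEC (1891 and 1143).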

Other observations

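Within cluster M2, compared after the values had been seen (36 old and 14 young cells of all gates), Plod1 was 127 CPM in old and 14.8 CPM in young cells, and Plod3 was 22.6 and 227 CPM. Without the highest cell of each age, Plod1 was 97.4 and 5.56 CPM and Plod3 16.5 and 127 CPM. Within E3 (36 old and 24 young cells), Plod2 was 3.37 CPM in old and 26.7 CPM in young cells and Serpinh1 131 and 213 CPM.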
